A study of Mus musculus with 8 samples.

Results

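The genes described here are 42 that mark macrophages and other myeloid cells, listed by mouse symbol and read from an expression table of 23360 genes. By role they were divided into 17 core genes of the lineage, 10 of resident-type macrophages, 7 of lipid-associated macrophages and 8 of inflammatory signalling and monocyte traffic. A row was matched for 40 of them, and none for Cd68 or Csf1r, which were not analysed here. Of the 42, 39 reached the level needed for testing (10 or more in 4 or more libraries), and Il10 did not.

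Macrophages are the most common immune cells of white fat, where they clear dying adipocytes, take up lipid and release cytokines. Resident-type cells carry scavenger and lectin receptors and are known for housekeeping in lean tissue. Lipid-associated macrophages gather around stressed adipocytes, mainly in obesity, and carry Trem2, Cd9, Gpnmb and lysosomal genes. Inflammatory signalling runs through chemokines such as CCL2, which draws monocytes bearing its receptor CCR2, and through cytokines such as TNF and interleukin 1 beta.

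Inguinal white adipose tissue, the subcutaneous fat of the groin, was sequenced from 6-week-old mice in 4 control libraries, from mice with floxed Lsd1, and in 4 knockout libraries, from floxed mice that also carried Adipoq-Cre. The Adipoq promoter drives Cre in adipocytes, so that the other cells of the pad, myeloid cells among them, are not its usual target. No group carried Cre alone, so what the Cre transgene itself does and what deletion of Lsd1 does cannot be told apart. The labels do not say that each library came from a separate mouse, so the p-values take account of library-to-library spread that may be merely technical.

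The files held 25671837 to 32442724 recovered reads per library, and values are given below as the scaled reads that the authors deposited. Kdm1a, which encodes LSD1, had 699, 685, 799 and 735 scaled reads in the 4 controls, in replicate order, against 566, 578, 547 and 581 in the 4 knockouts (log2 fold change -0.36, limma adjusted p = 0.0498), and this call was lost on leaving out each library in turn (adjusted p 0.0593 to 0.158). The fat marker Adipoq was at 33402 ± 4398 in controls and 27889 ± 2445 in knockouts (SD, n = 4 each), a high level in all 8 libraries, as the tissue label has it. The summed skeletal muscle markers ran from 113909 to 195953 in knockout replicates 1, 2 and 4 and from 8642 to 37922 in the other 5 libraries. Control replicates 1 and 2 bear title numbers, 518 and 517, apart from those of the other libraries. These are bulk libraries, in which fewer cells of a type and less RNA per cell cannot be told apart.

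Myeloid transcripts were abundant in control fat. Per kilobase of transcript, M lysozyme (Lyz2), an antibacterial enzyme of macrophages and neutrophils, stood highest among the members with 8623 scaled reads per kilobase in the control mean. Retnla, a secreted product of alternatively activated macrophages, followed with 6306, then the complement genes C1qa (3414), C1qb (3003) and C1qc (2354), the lysosomal membrane gene Laptm5 (1873), the lysosomal protease gene Ctss (1801) and the signalling adaptor gene Tyrobp (1771). The median over the 14059 tested genes with a transcript length was 133 per kilobase, and C1qa lay above 98.6% of them. At the other end were Mmp12 (38.1 per kilobase), Il1b (31.5), Arg1 (10.3) and Il10 (7.62). Every resident-type gene was thus above Tnf, Il1b and Il10 in the control mean, on a scale that assumes that the counting covered whole transcripts. Of the other inflammatory genes, Cx3cr1 (40.4) and Arg1 were also below every resident-type gene. Ccl2 (295), Ccr2 (282) and Cd14 (265) were instead above the resident-type genes Mertk (84.8) and Cd163 (260), so the role groups overlapped in level.

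The test between genotypes asked whether each gene's mean log2 level differed between genotypes, with p-values adjusted over all 14591 genes tested. It called 2 of the 39 tested members higher, Lgals3 and Cd9, and none lower (limma adjusted p under 0.05), where 1.28% of all tested genes were called higher and 0.356% lower (1.64% together). At an unadjusted p under 0.05, 9 members were higher and 2 lower, where the shares over all genes were 8.84% and 5.68%. Of the 39 members 34 had a positive log2 fold change, as had 54.6% of all tested genes, with a median of 0.21 against 0.02 over all genes. This tally was 26 of 39 with the muscle score as a covariate, 28 of the 38 tested with control replicates 1 and 2 left out, and 29 of 39 with control replicate 2 or control replicate 4 left out. In the muscle score, the mean log2 level of its markers, knockout replicates 1, 2 and 4 (12.9 to 13.6) were above every control (9.28 to 11.4). The score thus follows genotype in part, and a fit with it can also take up genotype difference. In 3 members, Lgals3, Cd9 and Clec10a, every knockout library lay above every control, where 5.06% of all genes did so, and in no member did every knockout library lie below, where 3.58% of all genes did so.

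In the main fit the role groups differed little in their medians. The median log2 fold change was 0.26 over 15 core genes, 0.15 over 10 resident-type genes, 0.22 over 7 lipid-associated genes and 0.10 over 7 inflammatory genes. The skeletal muscle score as a covariate took the lipid-associated median to -0.05, and this median was 0.45 without control replicates 1 and 2. The inflammatory median was 0.0066 in edgeR and -0.042 without control replicates 1 and 2, so with these controls left out the lipid-associated and inflammatory medians lay further apart.

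**Figure D1:**
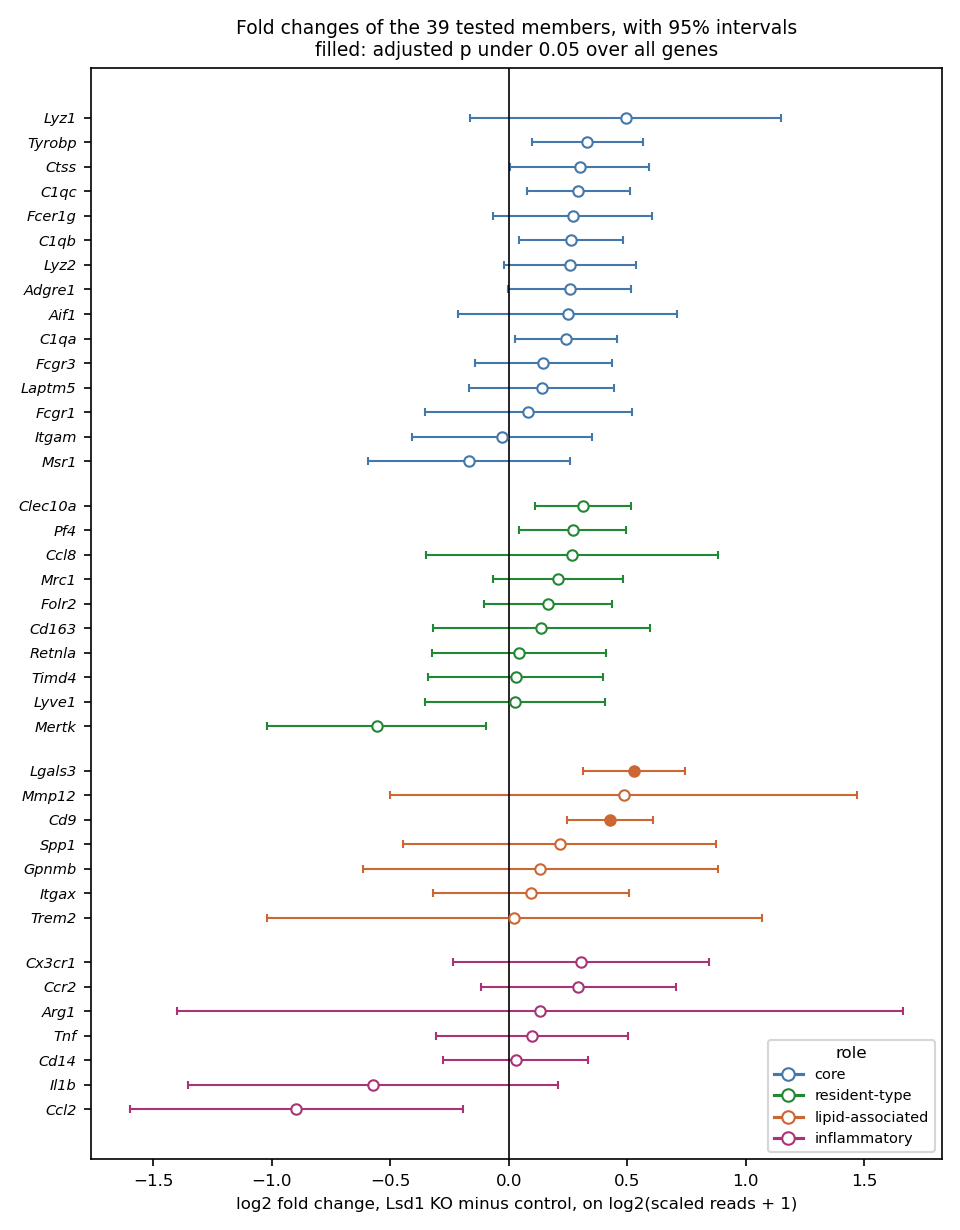
Log2 fold change, knockout minus control, of the 39 tested members on the log2(scaled reads + 1) scale, by role, with 95% intervals from the limma fit (n = 4 libraries per group). Filled points, Lgals3 and Cd9, passed an adjusted p of 0.05 over all genes. Among members that did not pass, the intervals of C1qa, C1qb, C1qc, Ctss, Tyrobp, Clec10a and Pf4 lie above 0. Those of Mertk and Ccl2 lie below 0.

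Lgals3, a lipid-associated gene at chr14:47373860-47386167 on the plus strand of GRCm38.p6, encodes galectin-3, a sugar-binding lectin that activated macrophages make in quantity and that other cells make too. It had 865, 843, 929 and 802 scaled reads in the controls, again in replicate order, and 1391, 1049, 1238 and 1307 in the knockouts. All 4 knockout libraries were above all controls. The mean rose from 860.1 ± 53.0 to 1246 ± 145 (SD, n = 4 each; log2 fold change 0.53, SE 0.10, 95% interval 0.31 to 0.74, limma adjusted p = 0.0270). The fold change stayed between 0.47 and 0.61 in all 24 alternatives, but the call did not hold in all of them. It was lost on leaving out control replicate 1 (adjusted p = 0.0745), control replicate 2 (0.0707), control replicate 4 (0.0944), knockout replicate 1 (0.0526), knockout replicate 4 (0.115) or the first 2 controls together (0.189). It was also lost with the B cell, muscle or mammary score as a covariate (0.0663, 0.0915 and 0.295). The muscle score was above every control in knockout replicates 1, 2 and 4, and the mammary score in knockout replicates 1, 2 and 3. These scores thus follow genotype in part, so a call lost with either cannot be told apart from a loss of power.

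Cd9, at chr6:125460266-125494760 on the minus strand, encodes a tetraspanin of the cell membrane that marks lipid-associated macrophages and is also found on many other cells, among them adipocyte progenitors. Its scaled reads were 926, 1111, 1035 and 1116 in the controls and 1493, 1351, 1344 and 1429 in the knockouts. Here too the groups did not overlap, and the lowest knockout library was well above the highest control. The mean rose from 1047 ± 88.7 to 1404 ± 70.3 (log2 fold change 0.43, SE 0.08, 95% interval 0.24 to 0.61, limma adjusted p = 0.0328). With fold changes of 0.37 to 0.46, the call was lost in limma-voom (adjusted p = 0.0503) and with each of the 3 covariates (0.0739 to 0.394). The limit given above for the muscle and mammary scores holds here too. Leaving out a control also ended it for replicates 1 (0.0763), 3 (0.0749) and 4 (0.0651) and for the first 2 together (0.156), as did leaving out knockout replicates 1 (0.0685), 2 (0.102) and 4 (0.133). Cd9 shares 218 exonic bases with an opposite-strand transcript, Gm26728, and the strand setting of the counting is not given in the sources used here.

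The 250 bases before the start sites of these genes, the only members called, were read from the RefSeq promoter table of GRCm38.p6 and are shown for that reason. They were searched for GAGGAA, the core letters bound by PU.1, the master transcription factor of myeloid cells, on both strands. No match was found in either window, chr14:47373610-47373859 on the plus strand for Lgals3 and chr6:125494761-125495010 on the minus strand for Cd9.
Lgals3: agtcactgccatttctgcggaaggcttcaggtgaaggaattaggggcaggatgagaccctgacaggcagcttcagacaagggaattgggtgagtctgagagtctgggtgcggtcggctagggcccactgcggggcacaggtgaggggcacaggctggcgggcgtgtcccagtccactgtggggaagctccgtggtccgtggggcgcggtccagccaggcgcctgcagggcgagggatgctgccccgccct
Cd9: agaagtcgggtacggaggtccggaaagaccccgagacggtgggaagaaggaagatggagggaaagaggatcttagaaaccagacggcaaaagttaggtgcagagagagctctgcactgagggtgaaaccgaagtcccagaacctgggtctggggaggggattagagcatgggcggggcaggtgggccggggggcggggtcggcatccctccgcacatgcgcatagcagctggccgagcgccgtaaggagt

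Other lipid-associated genes varied widely between libraries of the same genotype. Trem2, the lipid-sensing receptor of these cells, had 256, 283, 63.2 and 156 scaled reads in the controls and 207, 163, 90.2 and 251 in the knockouts. The groups overlapped throughout, and its log2 fold change of 0.02 had a 95% interval of -1.02 to 1.07 (limma adjusted p = 0.988). With the first 2 controls left out, the fold change of Trem2 was 0.74 (adjusted p = 0.758). Gpnmb, a membrane glycoprotein of lipid-laden macrophages, had 775, 1174, 638 and 797 in the controls and 1138, 721, 495 and 1652 in the knockouts. Its fold change was 0.13 (interval -0.62 to 0.88, adjusted p = 0.895). The elastase gene Mmp12 had 116, 252, 90.6 and 90.8 in the controls and 197, 175, 79.6 and 336 in the knockouts (0.48, interval -0.50 to 1.47, adjusted p = 0.660). The same omission gave 0.34 for Gpnmb and 0.94 for Mmp12 (adjusted p = 0.893 and 0.673). In all 3 genes control replicate 2 was the highest control, knockout replicate 4 the highest knockout and knockout replicate 3 the lowest knockout, so that they shared a pattern across libraries. Mmp12 shares 157 exonic bases with Mmp1b on the other strand.

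Itgax, the integrin CD11c of tissue macrophages and dendritic cells, and Spp1, the secreted matrix protein osteopontin, did not pass either. Itgax had 228, 196, 359 and 226 scaled reads in the controls and 229.6, 300.4, 235 and 290.1 in the knockouts (log2 fold change 0.09, adjusted p = 0.860). Spp1 ranged from 119 to 298 in the controls and from 154 to 273 in the knockouts (0.22, adjusted p = 0.787, and 0.45 with the first 2 controls left out). It shares 309 exonic bases with the annotated gene Gm42793 on the same strand, so its reads are uncertain there. Relative to the geometric mean of the 15 core genes in the same library, Lgals3 stood at 0.731 to 0.880 in the controls and 0.853 to 1.09 in the knockouts. The same ratio was 0.784 to 1.16 and 1.05 to 1.16 for Cd9, so these ratios overlapped where the levels did not.

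**Figure D2:**
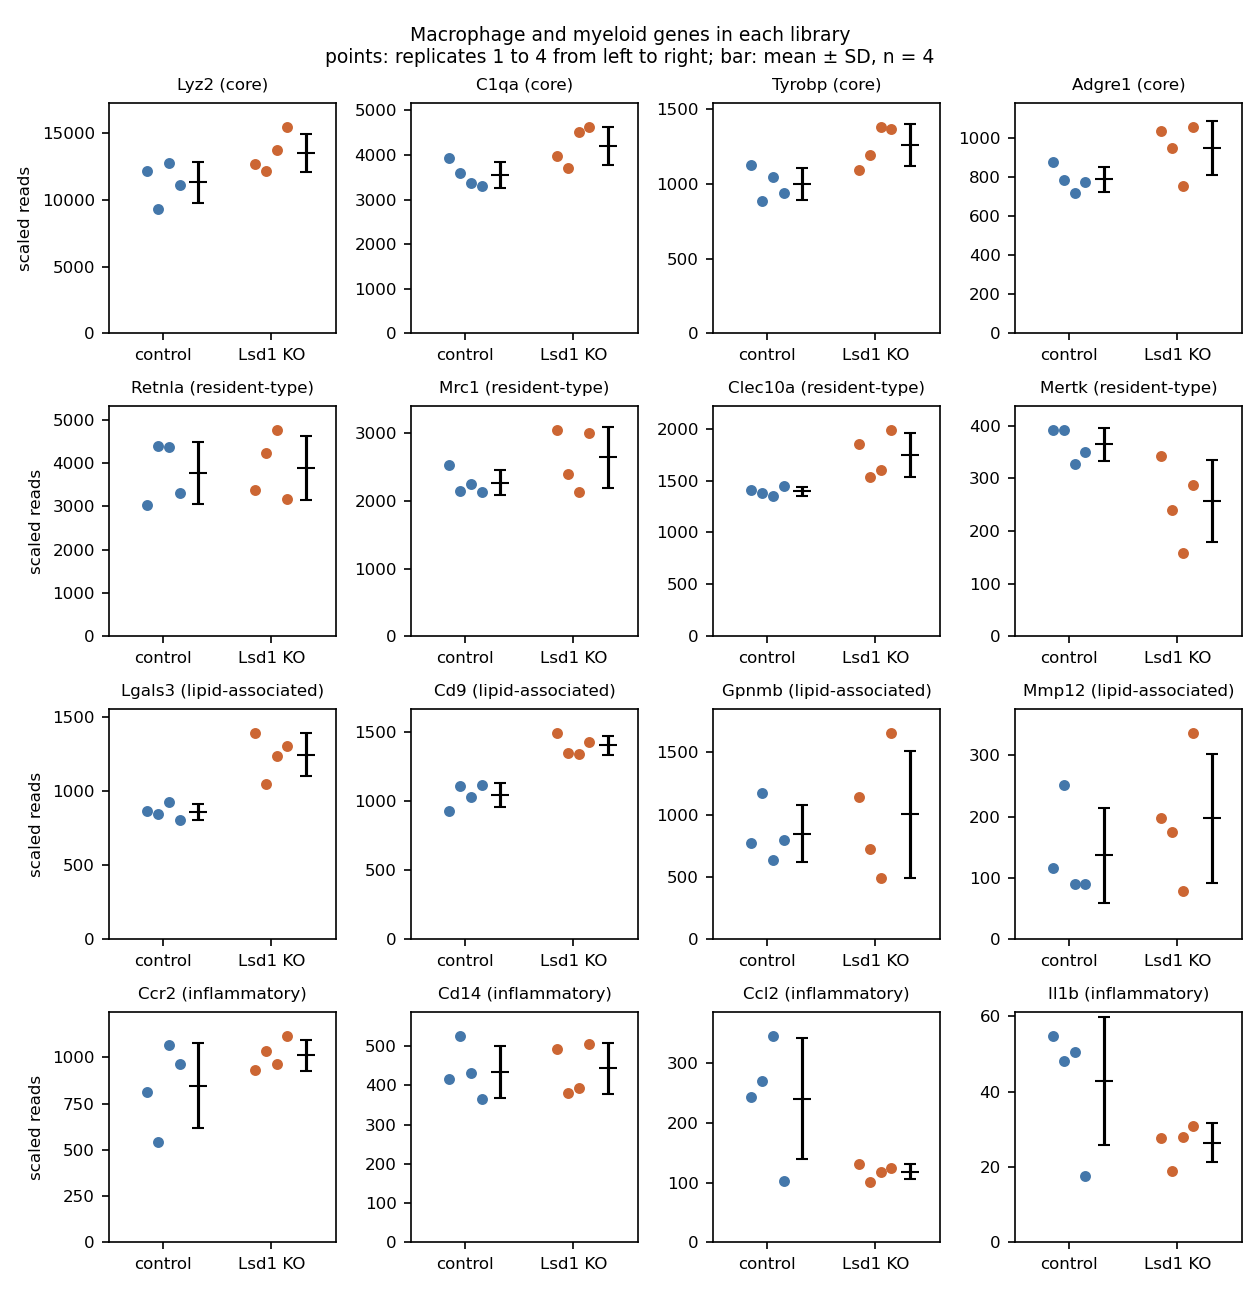
Scaled reads (vertical axes, from 0) of 16 members in the 4 control and 4 knockout libraries, 4 genes from each role, with points for replicates 1 to 4 and a bar for the mean ± SD. Lgals3, Cd9 and Clec10a show knockout libraries all above the controls, Gpnmb and Mmp12 spread widely in both groups, and in Ccl2 control replicate 4 lies among the knockouts.

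Core genes of the lineage leaned upward, and none passed. Of 15 tested, 13 had a positive and 2 a negative fold change, from -0.17 for the scavenger receptor gene Msr1 to 0.49 for Lyz1. The chains of C1q, the macrophage-made starter protein of the complement cascade, are encoded side by side on chromosome 4 and had nearly the same values. C1qa had 3940.2, 3592, 3362 and 3305 scaled reads in the controls and 3979.9, 3709, 4507 and 4621 in the knockouts. C1qb had 3671, 3267, 3164 and 2966 in the controls and 3914, 3406, 3985 and 4400.0 in the knockouts. C1qc had 3289.6, 2725, 2689 and 2621 in the controls and 3382, 3093, 3633 and 3755 in the knockouts. In each chain 3 of 4 knockout libraries were above the highest control, which was control replicate 1 each time. The log2 fold changes were 0.24, 0.26 and 0.29, each with an SE of 0.10 (limma adjusted p = 0.287, 0.260 and 0.198). With the first control left out, the 3 chains were among 7 members whose knockout libraries all lay above the controls, where 6.09% of all genes did so, and no member lay wholly below, where 5.1% did. With the first 2 controls left out they were among 10 such members, where 8.7% of all genes did so. Again none lay below, where 9.03% did. Both omissions took away control replicate 1, the highest control of each chain. For the chains this separation thus adds nothing to the values above. The ratio of C1qb to C1qa within a library lay between 0.884 and 0.984 in all 8 libraries, and that of C1qc to C1qa between 0.759 and 0.850.

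The start regions of C1qb and C1qc are shown because these neighbours kept their ratio while differing in where the PU.1 letters lie. The 250 bases before each start site hold 1 match, in capitals. In C1qb, at chr4:136886201-136886450 on the minus strand, GAGGAA begins 30 bases upstream of the start. In C1qc, at chr4:136892915-136893164 on the same strand, the letters on the opposite strand, TTCCTC, begin 193 bases upstream.
C1qb: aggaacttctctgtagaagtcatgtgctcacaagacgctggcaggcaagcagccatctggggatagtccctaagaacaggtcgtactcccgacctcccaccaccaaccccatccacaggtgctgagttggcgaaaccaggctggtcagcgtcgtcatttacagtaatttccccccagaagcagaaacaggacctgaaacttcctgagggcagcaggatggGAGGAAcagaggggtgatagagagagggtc
C1qc: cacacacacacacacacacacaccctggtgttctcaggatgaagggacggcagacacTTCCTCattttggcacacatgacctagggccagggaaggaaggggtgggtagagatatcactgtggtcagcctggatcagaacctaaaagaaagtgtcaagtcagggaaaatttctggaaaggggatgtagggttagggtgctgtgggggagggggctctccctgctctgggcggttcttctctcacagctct
Among the 31 members in the promoter table, 17 held such a match before their first listed start (54.8%), against 23.1% of all 27025 genes in it. By role it was 9 of 12 core genes, 4 of 8 resident-type, 3 of 7 lipid-associated and 1 of 4 inflammatory genes. A match describes letters only and shows no binding.

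Signalling and lysosomal genes of the core did not pass. Tyrobp, the adaptor DAP12 that carries signals from TREM2 and other receptors, had 1126, 888, 1044 and 936 scaled reads in the controls and 1092, 1192, 1378 and 1369 in the knockouts. Of the knockouts, 3 were above every control (log2 fold change 0.33, SE 0.11, adjusted p = 0.185). Ctss, the cathepsin that trims the class II invariant chain, was at 2441 ± 414 and 2983 ± 328 (0.30, adjusted p = 0.333). Laptm5 had 5076, 3586, 5895 and 4924 in the controls and 5163, 5343, 4998 and 5636 in the knockouts, wholly within the control range (0.14, interval -0.17 to 0.45, adjusted p = 0.693). Aif1, an actin-binding protein of activated macrophages, ranged from 169 to 304 and from 242 to 376 (0.25, adjusted p = 0.633).

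Surface markers used to identify macrophages did not pass either. Adgre1, which encodes F4/80, the classical mouse macrophage antigen, had 877, 785, 719.8 and 779 scaled reads in the controls and 1039, 953, 753 and 1057 in the knockouts. Knockout replicate 3 lay among the controls and the other 3 above them (log2 fold change 0.26, SE 0.12, adjusted p = 0.347). Itgam, the integrin CD11b shared by macrophages, monocytes and neutrophils, was at 769 ± 141 and 759 ± 165 (-0.03, interval -0.41 to 0.35, adjusted p = 0.957). Its exons overlap those of the annotated gene Gm49368 on the same strand over 3450 bases, so its reads are uncertain.

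The Fc receptor genes, whose products bind antibody-coated targets, did not pass. The high-affinity receptor gene Fcgr1 was at 144 ± 38.9 and 148 ± 12.9 (log2 fold change 0.08, adjusted p = 0.887). Fcgr3 was at 634 ± 86.3 and 702 ± 105 (0.15, adjusted p = 0.656). Fcer1g, the signalling chain shared by activating Fc receptors, was at 573 ± 127 and 679 ± 49.5 (0.27, adjusted p = 0.455). The wide interval of Fcgr1, -0.35 to 0.52, leaves room for a change in either direction.

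The lysozyme genes differed in how they were spread over the libraries. Lyz2 had 12149, 9307, 12809.9 and 11124 scaled reads in the controls and 12728, 12208, 13794 and 15468 in the knockouts (log2 fold change 0.26, SE 0.12, adjusted p = 0.379). Its neighbour Lyz1, P lysozyme, known from Paneth cells of the gut, had 575, 441, 1243 and 1095 in the controls and 1135, 1070.4, 1180 and 947 in the knockouts. Control replicates 1 and 2 were thus the lowest of all 8 libraries in Lyz1. The ratio of Lyz1 to Lyz2 was 0.0473, 0.0474, 0.0970 and 0.0984 in the controls and 0.0892, 0.0877, 0.0855 and 0.0612 in the knockouts. The log2 fold change of Lyz1, 0.49 (SE 0.29, adjusted p = 0.489), became -0.11 without control replicates 1 and 2. The coding sequences in GENCODE M21 (GRCm38), 444 bases each and both on chromosome 10, differ at 22 positions (95.05% identity) and share a stretch of 118 identical bases, so their reads are uncertain where the copies are identical. Their first 60 coding bases are shown with the 2 differing bases in capitals.
Lyz1: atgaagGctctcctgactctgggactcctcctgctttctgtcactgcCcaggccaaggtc
Lyz2: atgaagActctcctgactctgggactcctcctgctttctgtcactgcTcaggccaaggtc

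**Figure D3:**
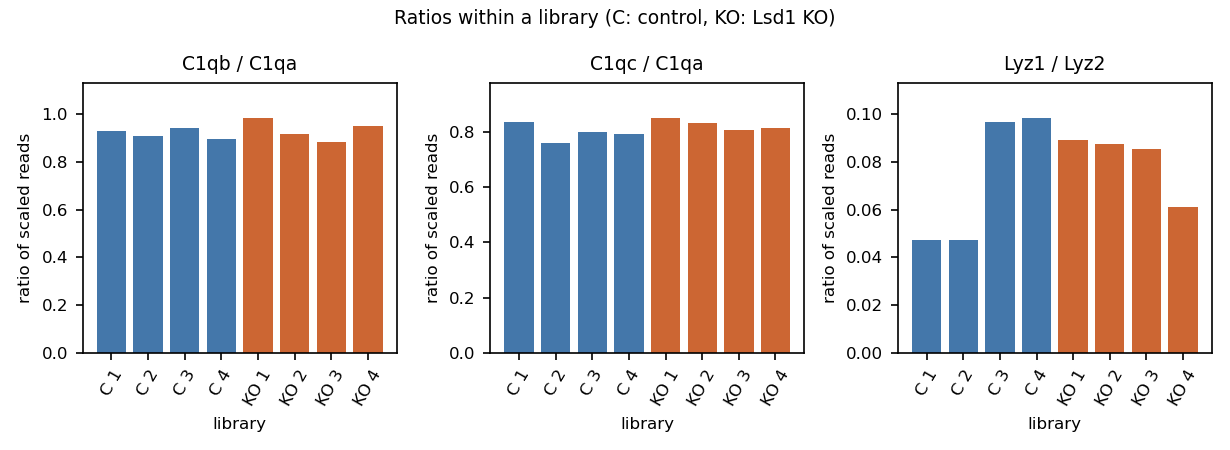
Ratios of scaled reads within each library (bars from 0) for C1qb to C1qa, C1qc to C1qa and Lyz1 to Lyz2 in control (C) and knockout (KO) replicates 1 to 4. The C1q ratios stay within 0.759 to 0.984, while the lysozyme ratio is 0.0473 and 0.0474 in control replicates 1 and 2 and at least 0.0612 elsewhere.

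No gene of resident-type macrophages passed. Clec10a, a lectin receptor for galactose-type sugars, had 1409, 1376, 1352 and 1445 scaled reads in the controls and 1851, 1537, 1599 and 1984 in the knockouts. The controls were tightly grouped and all knockouts were above them. The mean was 1396 ± 40.4 in controls and 1743 ± 210.3 in knockouts (log2 fold change 0.31, SE 0.09, interval 0.11 to 0.52), and the gene did not pass over all genes (limma adjusted p = 0.144, and 0.0524 to 0.522 over the alternatives).

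Mertk, the receptor tyrosine kinase with which macrophages recognise dying cells, was the resident-type gene with a negative fold change. It had 391, 391, 328 and 349.7 scaled reads in the controls and 342, 241, 157 and 287 in the knockouts. Of the knockouts, 3 were below every control and replicate 1 was among them (log2 fold change -0.56, SE 0.21, interval -1.02 to -0.09, adjusted p = 0.258). Divided by the core geometric mean, Mertk was at 0.267 to 0.408 in the controls and 0.124 to 0.267 in the knockouts.

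The remaining resident-type genes had groups that overlapped. Mrc1, the mannose receptor CD206, had 2540.4, 2154, 2259 and 2134 scaled reads in the controls and 3047, 2401, 2135 and 3002 in the knockouts (log2 fold change 0.21, adjusted p = 0.488). Retnla had 3022, 4397, 4371 and 3319.8 in the controls and 3389, 4244, 4759 and 3179 in the knockouts (0.04, interval -0.32 to 0.41, adjusted p = 0.932). Knockout replicates 1 and 4 were the high knockouts for Mrc1 and the low ones for Retnla. The folate receptor gene Folr2 had 1492, 1277, 1171 and 1178 in the controls and 1551, 1181, 1370.4 and 1666 in the knockouts (0.17, adjusted p = 0.574), and it shares 975 exonic bases with the antisense gene Gm10602. Cd163, the receptor for haptoglobin-bound hemoglobin, ranged from 995 to 1272 in the controls and from 832 to 1730 in the knockouts (0.14, adjusted p = 0.806).

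Lyve1, a hyaluronan receptor of vessel-associated macrophages and of lymphatic endothelium, was at 955 ± 228 and 965 ± 169.7 (log2 fold change 0.03, adjusted p = 0.960). Timd4, which binds phosphatidylserine on dying cells, was at 649 ± 151 and 650.0 ± 72.1 (0.03, adjusted p = 0.956). These means were nearly equal, with intervals that reach from -0.35 to 0.41 for Lyve1 and from -0.34 to 0.40 for Timd4. The chemokine gene Pf4, made by platelets and by resident macrophages, was at 495 ± 17.7 and 600.5 ± 82.4 with 3 of 4 knockouts above every control (0.27, SE 0.10, adjusted p = 0.265). Ccl8, a monocyte chemokine, had 1021, 781, 431 and 471 in the controls and 994, 623, 625 and 883 in the knockouts (0.27, adjusted p = 0.705), so that control replicates 1 and 2 were above the other controls. With both left out, all knockouts were above the remaining controls in Ccl8, and the fold change was 0.76 (adjusted p = 0.243). As these were its 2 highest controls, that separation adds nothing to the values given.

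Inflammatory genes did not pass in either direction. Of the 7 tested, 5 had a positive and 2 a negative fold change. Ccl2, the main monocyte chemoattractant, had 242, 270.3, 344 and 103 scaled reads in the controls and 130.3, 101, 117 and 124 in the knockouts. The 4 knockouts and control replicate 4 were low and the other 3 controls high. The mean was 239.9 ± 101 in controls and 118 ± 12.8 in knockouts (log2 fold change -0.90, SE 0.31, interval -1.60 to -0.19, limma adjusted p = 0.231). Ccl2 passed without control replicate 4 (-1.26, adjusted p = 0.00980), where 0.95% of genes were called in either direction, and in DESeq2 (-1.04, adjusted p = 0.0111), where 5.32% were.

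The interleukin 1 beta gene Il1b followed the same libraries at a low level, with 54.7, 48.2, 50.4 and 17.5 scaled reads in the controls and 27.8, 19.1, 27.9 and 30.9 in the knockouts. Its log2 fold change was -0.57 (interval -1.35 to 0.21, adjusted p = 0.502), and -0.19 with the first 2 controls left out. Without control replicate 4 the knockouts of Ccl2 and Il1b lay below every remaining control, where 5.11% of all genes did so. The same 3 members as with all libraries lay above, where 6.46% did. In Ccl2 and Il1b control replicate 4 was the only control not above all knockouts, so this separation adds nothing to the values. From the fixed list of other chemokines, Ccl7 and Cxcl1 were picked out after their values were seen. Ccl7, which lies next to Ccl2, had 258, 303, 308 and 63.9 in the controls and 68.2, 52.2, 73.0 and 67.4 in the knockouts (-1.60, adjusted p = 0.128). Cxcl1, which draws neutrophils, had 85.4, 72.2, 30.4 and 12.9 in the controls and 10.9, 7.62, 11.9 and 11.5 in the knockouts (-1.84, adjusted p = 0.133). Transcripts known to rise within minutes of tissue handling were also uneven. Their 11 summed genes stood at 9422, 15331, 5339 and 4395 in the controls and at 4806 to 5683 in the knockouts, and their part in these values was not tested.

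The receptor genes Ccr2, Cx3cr1 and Cd14 did not show the split seen in Ccl2 and Il1b. Ccr2, the receptor for CCL2, had 815, 543, 1066 and 964 scaled reads in the controls and 929, 1031, 964 and 1113 in the knockouts (log2 fold change 0.29, adjusted p = 0.512). Cx3cr1, the fractalkine receptor of patrolling monocytes, had 145, 84.0, 205 and 172 in the controls and 185, 155, 201 and 176 in the knockouts (0.31, adjusted p = 0.613). Control replicate 2 was the lowest library in both genes, and without control replicates 1 and 2 their fold changes were -0.01 and -0.07. Cd14, the co-receptor for bacterial lipopolysaccharide, had 417, 525, 431 and 365 in the controls and 492, 381, 394 and 506 in the knockouts (0.03, interval -0.28 to 0.33, adjusted p = 0.945).

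Tnf, Arg1 and Il10 were low in every library. The cytokine gene Tnf was at 89.7 ± 17.4 and 95.8 ± 16.9 scaled reads (log2 fold change 0.10, adjusted p = 0.850). The arginase gene Arg1 had 42.5 in control replicate 1 and 4.42 to 7.74 in the other controls, with 3.82 to 22.5 in the knockouts (0.13, interval -1.40 to 1.66, adjusted p = 0.951). Il10, an anti-inflammatory cytokine gene, had 4.64 to 14.2 in the controls and 5.44 to 10.98 in the knockouts and was not tested.

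Differences between single libraries ran through the whole group. Of the 40 members with a row, 12 had their lowest value in control replicate 2 and 10 in control replicate 4, and 12 had their highest value in knockout replicate 4. The summed core genes were 35919, 28814, 36476 and 32844 in the controls and 38079, 36506, 39657 and 43643 in the knockouts, so that the lowest knockout sum was just above the highest control sum. The summed inflammatory members ranged from 1562 to 2223 in the controls and from 1821 to 2062 in the knockouts and overlapped.

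**Figure D4:**
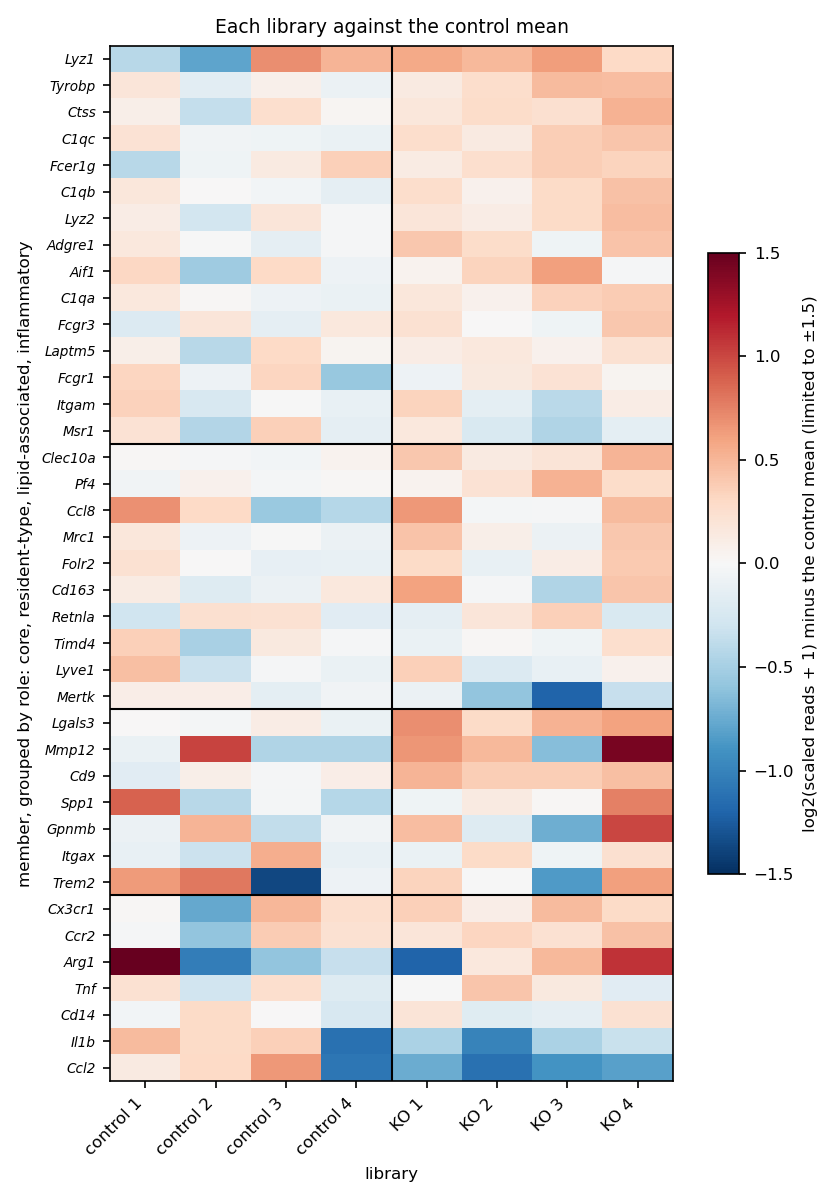
Level of each tested member in each library as log2(scaled reads + 1) minus the control mean, with members grouped by role (horizontal lines) and libraries by genotype (vertical line), and colours limited to ±1.5. Lgals3 and Cd9 are above the control mean in all knockout libraries, Trem2, Gpnmb and Mmp12 vary alike across libraries, and Ccl2 and Il1b are low in the knockouts and in control replicate 4.

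Other genes of the same biology, from lists set by function, held no called gene. Of 34 further macrophage genes 29 had a positive fold change (median 0.19), 4 of them with an unadjusted p under 0.05. Apoe, the lipoprotein gene that macrophages and adipocytes share, was highest and was at 52459.5 ± 4629 and 66739.8 ± 4248 with no overlap (log2 fold change 0.35, adjusted p = 0.301). Of 21 lysosomal and lipid-handling genes 10 were positive and 11 negative (median -0.02), of 14 myeloid transcription factor genes 9 were positive (0.12), and of 21 tested chemokine and cytokine genes 14 (0.12). Csf1, the growth factor on which macrophages depend, was at 1427 ± 197 and 1249 ± 47.1 (-0.18, adjusted p = 0.453). Irf8, a transcription factor of monocytes and dendritic cells, was at 1728 ± 434 and 2164 ± 126 (0.36, adjusted p = 0.334). Cebpa, the highest of the transcription factor genes, was at 10816 ± 1469 and 8121 ± 1258 (-0.42, limma adjusted p = 0.199).

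Markers of several other cell types also had fold changes on 1 side. All 11 B cell markers and all 10 tested T cell markers had positive fold changes (medians 0.31 and 0.26), with summed B cell levels of 8082 to 17630 in controls and 12704 to 17537 in knockouts and T cell levels of 4992 to 8909 and 7037 to 9385. Of 14 tested monocyte and neutrophil genes 12 were positive (median 0.34), and of 14 dendritic cell genes, which include class II antigen-presenting genes, 11 (0.22). Of 10 adipocyte markers 9 were negative (median -0.26), with sums of 442382 to 554765 in controls and 330220 to 361526 in knockouts. Of these adipocyte markers only Cidec, a lipid droplet gene, passed (-1.01, limma adjusted p = 0.00179). Summed lymphatic endothelial markers were at 3007 to 4342 and 4111 to 5546. All 8 blood endothelial markers were negative (median -0.14), with sums of 14365 to 16469.5 in controls and 12061 to 14892 in knockouts. All 8 fibroblast and progenitor markers were positive (median 0.09), with overlapping sums of 137471 to 168438 in controls and 136442 to 187394 in knockouts. The 11 tested muscle markers were positive as well (median 2.05), with the uneven sums given above. The mammary epithelial markers were scarce, with sums of 51.7 to 108 in controls and 116 to 479 in knockouts that did not overlap, and the 3 of 12 that could be tested were positive (median 0.70). Of the 12, the milk protein gene Wap was at 0 in all libraries. Ltf, among those 3, is also on the monocyte and neutrophil list. The keratin genes named here were picked out after their values were seen. Krt5 had 237 and 82.2 in knockout replicates 1 and 2 and at most 0.49 in any other library. Krt14 had 137 and 39.7 in knockout replicates 1 and 2 and at most 0.98 elsewhere. Krt8 and Krt18 were at most 3.27 and 9.73 in any library. Which cells the mammary score reflects was not tested. Its part in the values of Lgals3 and Cd9, whose calls were lost with it as a covariate, was not tested further. The part of these other cell types, or of adipocyte RNA as a share of each library, in the upward lean of the myeloid genes was not tested.

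**Figure D5:**
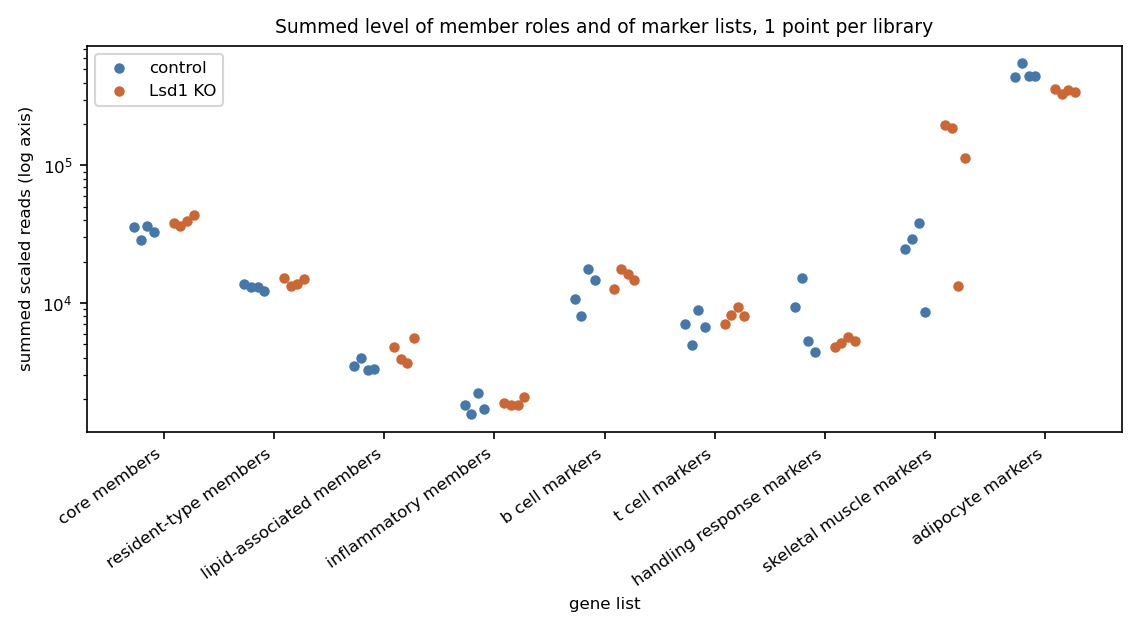
Summed scaled reads (log axis) of the member roles and of marker lists of other cells, 1 point per library for replicates 1 to 4 of each genotype. Core member sums are 28814 to 36476 in controls and 36506 to 43643 in knockouts, B and T cell sums overlap, muscle sums reach 195953 in 1 knockout, and adipocyte sums are lower in all knockouts.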

How the data were processed

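RNA from 8 inguinal fat libraries was sequenced. Per the labels' protocols and design text, TopHat version 2 placed the reads on mm10, HOMER counted them, and the authors looked for differences with edgeR and DESeq version 1.8.3. For annotation, strand and scaling, the sources used here give nothing. The deposited values are a signal, read counts times 1 factor per library, and all values above 0 were whole multiples of that step within 0.02. Totals as deposited were about the same in every library, so depth is given as recovered reads. Of 23373 rows 1 had no accession and was left out. Accessions were matched to symbols with RefSeq (GRCm38.p6, 22527) and GENCODE M21 (124), 721 stayed unmatched, and the highest-total row was kept for 12 symbols. Coordinates are those of GRCm38, the base assembly of mm10.

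Genes were tested with limma 3.58.1 (trend) on log2(value + 1), genotype as the only term, with Benjamini-Hochberg adjustment over 14591 genes. Fold changes are knockout minus control on that scale, which understates changes of low genes. Members, roles and lists were chosen with earlier results of these data known, so no test of a list is given. Per-sample values are given for members that passed or did not overlap, the 4 with the highest mean and the 2 with the largest change in each role. Some other members were added after their values were seen. From other lists, called genes and the 2 highest could be named. Alternatives were TMM, RLE, upper-quartile and library-total scaling, edgeR (4.0.16, 218 genes called), DESeq2 (1.42.0) and limma-voom on recovered reads, pseudocounts of 0.5 and 5, no filter and a minimum of 50, all rows, leaving out each library or the 2 controls numbered 517 and 518, and 3 marker scores as covariates. R was 4.3.3 and Python 3.11.15.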

Additional observations from a re-analysis of the deposited data

Results flagged for a closer look

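Dixon's test was run on each genotype's 4 libraries for 39 members, 78 groups in all, and singled out 3, where chance alone gives about 1 in 20. In C1qc control replicate 1 stood apart with 3289.6 scaled reads, the other controls having 2621 to 2725. In Mmp12 control replicate 2 stood apart with 252 scaled reads, the others having 90.6 to 116. In Arg1 control replicate 1 stood apart with 42.5 scaled reads, the others having 4.42 to 7.74.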

How the results depend on the processing

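No paired analysis was possible because the title numbers are not shared between the genotypes. The 239 genes called over all genes became 776 in DESeq2, 98 without control replicates 1 and 2, 139 and 38 with a B cell or mammary epithelium covariate, and 71 to 429 without 1 library. The 2 members called became 1 in limma-voom, 0 without control replicates 1 and 2 or with the B cell, muscle or mammary covariate, and 0 to 2 without 1 library. As the muscle and mammary scores follow genotype in part, fits with them cannot fully separate score from genotype. The 3 members that did not overlap became 10 without control replicates 1 and 2, where 8.7% of all genes lay wholly above and 9.03% wholly below. They became 3 to 7 without 1 library. There were 7 without control replicate 1, where 6.09% of all genes lay wholly above and 5.1% wholly below. Leaving out libraries makes such separation easier for any gene. The lipid-associated median was 0.45 without control replicates 1 and 2, 0.44, -0.052 and 0.45 with the B cell, muscle and mammary covariates, and 0.04 to 0.42 without 1 library. Kdm1a, at -0.36, lost its call with library totals as scaling (-0.35), a pseudocount of 0.5, no filter or a minimum of 50 (-0.36 each), without control replicates 1 and 2 (-0.43), with the muscle or mammary covariate (-0.39 and -0.38) and without any 1 library (-0.39 to -0.31). Of the 39 tested members 22 kept their sign in every alternative that tested them, and 17 reversed at least once, none of them called. Lgals3 and Cd9 kept theirs in all 24 alternatives. Il1b, among the 22, was tested in 23 of the alternatives and Arg1, among the 17, in 18. In edgeR and DESeq2 the reversed values were -0.0054 and -0.0095 for Lyve1, -0.012 and -0.016 for Timd4, -0.13 and -0.14 for Trem2 and -0.24 and -0.25 for Arg1. Without control replicates 1 and 2 they were -0.038 for Timd4, 0.029 for Itgam, -0.029 for Laptm5, -0.12 for Itgax, -0.11 for Lyz1, -0.010 for Ccr2 and -0.074 for Cx3cr1. With the B cell covariate they were -0.082 for Timd4, 0.013 for Itgam, -0.0037 for Laptm5, -0.098 for Itgax and -0.018 for Tnf. With the muscle covariate they were -0.064 for Lyve1, -0.36 for Trem2, -0.052 for Itgax, -0.016 for Fcgr1, -0.12 for Cd14, -0.14 for Cd163, -0.30 for Gpnmb and -0.21 for Mmp12. With the mammary covariate they were -0.17 for Retnla and -0.081 for Tnf. Leaving out 1 library at a time gave -0.082 to 0.18 for Lyve1, -0.13 to 0.15 for Timd4, -0.43 to 0.315 for Trem2, -0.21 to 0.58 for Arg1, -0.15 to 0.095 for Itgam, -0.0595 to 0.135 for Retnla, -0.0005 to 0.24 for Laptm5, -0.015 to 0.275 for Itgax, -0.11 to 0.19 for Fcgr1, -0.051 to 0.12 for Cd14, -0.0175 to 0.33 for Cd163, -0.0082 to 0.19 for Tnf and -0.16 to 0.42 for Gpnmb. The cause of these changes was not tested, apart from fewer samples where libraries were left out. With 4 libraries a group, members of low level such as Arg1 and Il1b have intervals too wide to show a modest difference.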
